A study of Rattus norvegicus with 9 samples.

Results

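The genes described here were 9 genes of osteoclast differentiation and cell fusion: Nfatc1, Dcstamp, Ocstamp, Oscar, Itgb3, Calcr, Siglec15, Trem2 and Tyrobp. They were chosen by name, and all 9 were found among the 23026 genes of the count and FPKM tables. Bone mRNA of female Sprague–Dawley rats, bought at 8 weeks of age, was sequenced in 3 groups of 3 libraries. Sham rats had fat next to the ovary removed and received the vehicle CMC-Na, OVX rats had both ovaries removed and received CMC-Na, and OVX-AS-IV-High rats had both ovaries removed and received AS-IV (astragaloside IV) at 80 mg/kg. Gavage began 6 weeks after surgery and lasted 8 weeks. The labels give CMC-Na at 1%, 2% and 3% for Sham replicates 1, 2 and 3, and at 1% for each OVX library. By label, Sham replicates 2 and 3 thus differ from OVX in vehicle concentration. Within Sham the labelled concentration cannot be told apart from the replicate number, and its part in the values was not tested. The paper's methods instead describe the same vehicle concentration for Sham and OVX animals. The Sham libraries were kept as 1 group. All groups thus received CMC-Na, in which AS-IV was given. Each library is a whole-bone extract, so a lower value can come from fewer cells of a type or from less RNA per cell, and these cannot be told apart.

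Osteoclasts are the bone-resorbing cells, and they arise when precursors of the monocyte lineage fuse. The cytokines M-CSF and RANKL drive this differentiation, and RANK signalling together with calcium signals switches on Nfatc1, the transcription factor known as the master regulator of the osteoclast. The calcium signal comes from immune-type receptors that pair with adaptor proteins carrying an ITAM motif: Trem2 and Siglec15 couple to Tyrobp (DAP12), and Oscar to the Fc receptor γ chain. Dcstamp and Ocstamp are membrane proteins needed for fusion, Itgb3 is the β3 chain of the integrin with which the mature cell holds on to bone, and Calcr is the receptor for calcitonin, the hormone that stops resorption. Loss of ovarian oestrogen is a standard way to raise resorption in rodents, so these genes address whether the osteoclast programme differed after ovariectomy and after AS-IV.

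RNA of 5 marker genes of the osteoclast was present in every library. Their mean levels over the 9 libraries were 952 FPKM for Car2, 599 FPKM for Ctsk, 238 FPKM for Acp5, 163 FPKM for Mmp9 and 18.7 FPKM for Atp6v0d2. FPKM is the read count per kilobase of gene and per unit of sequencing depth. Other cells of bone and marrow were present as well. Of the marker lists, skeletal muscle varied most between libraries: the summed level of the 8 listed genes found in the table ranged from 1619 to 9363 CPM (counts scaled to the library total) in Sham, from 1603 to 3241 CPM in OVX and from 544 to 4532 CPM in OVX-AS-IV-High. Total counts lay between 34874880 and 37298250 per library. The means of the 5 osteoclast markers did not all shift the same way from Sham to OVX (SD, n = 3 each). Car2 was lower, with 1580 ± 426 and 1239 ± 239 CPM. Higher means were found for Ctsk (622 ± 367 and 1038 ± 358 CPM) and Acp5 (451 ± 215 and 542 ± 196 CPM). The same held for Mmp9 (416 ± 18.8 and 516 ± 104 CPM) and Atp6v0d2 (18.5 ± 10.8 and 29.2 ± 8.35 CPM). The part of other cells in these marker levels was not tested.

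The 9 genes covered a wide range of levels. Per length, Tyrobp stood first at 339 ± 39.2 FPKM (SD, n = 9), and Itgb3 followed at 29.9 ± 8.33 FPKM. Nfatc1 had 6.64 ± 0.490 FPKM, Siglec15 6.34 ± 1.45 FPKM, Dcstamp 5.58 ± 1.80 FPKM, Trem2 4.44 ± 0.731 FPKM and Oscar 3.53 ± 1.46 FPKM. The fusion gene Ocstamp, at 0.448 ± 0.154 FPKM, and Calcr, at 0.367 ± 0.224 FPKM, were the lowest. Tyrobp exceeded Itgb3, Itgb3 exceeded Nfatc1, and Oscar exceeded Ocstamp in 9 of 9 libraries. The neighbours between Nfatc1 and Oscar were not ordered alike throughout: Nfatc1 exceeded Siglec15 in 6 libraries, Siglec15 exceeded Dcstamp in 7, Dcstamp exceeded Trem2 in 6 and Trem2 exceeded Oscar in 6. Ocstamp exceeded Calcr in 6 libraries.

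The master regulator Nfatc1 was the steadiest of the 9 genes, with a 1.19-fold range over the libraries. It had 40.4, 41.6 and 43.6 CPM in Sham replicates 1 to 3, 41.5, 47.3 and 48.2 CPM in OVX and 40.9, 42.4 and 44.7 CPM in OVX-AS-IV-High. OVX replicates 2 and 3 held the highest values, and the groups overlapped.

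The fusion genes spread much more widely within each group. Dcstamp had 6.92, 9.47 and 14.0 CPM in Sham, 9.70, 14.9 and 14.5 CPM in OVX and 9.55, 10.7 and 19.4 CPM in OVX-AS-IV-High. It ranged 2.81-fold over all libraries and 2.03-fold within Sham, 1.54-fold within OVX and 2.03-fold within the treated group. Ocstamp, a related protein with the same role, had 2.17, 3.49 and 2.68 CPM in Sham, 2.23, 3.80 and 5.02 CPM in OVX and 3.88, 2.36 and 5.30 CPM in OVX-AS-IV-High. Replicate 3 of both ovariectomized groups held its highest values, and the groups overlapped.

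Of the genes of the mature cell, Itgb3 had 44.4, 122 and 93.6 CPM in Sham, 132, 122 and 118 CPM in OVX and 75.1, 97.1 and 115 CPM in OVX-AS-IV-High. The 3 OVX libraries lay close together and above the 3 OVX-AS-IV-High libraries, while Sham replicate 1 was the lowest of all. Between OVX-AS-IV-High and OVX, 12.7% of all genes tested did not overlap. Platelets and megakaryocytes also carry Itgb3. Their 7 marker genes, all detected, summed to 779 to 1432 CPM in Sham, 781 to 1205 CPM in OVX and 749 to 966 CPM in OVX-AS-IV-High, and their part in the Itgb3 values was not tested. Calcr rested on only 13 to 94 counts per library. It had 0.962, 1.29 and 2.65 CPM in Sham, 0.354, 2.06 and 1.71 CPM in OVX and 0.523, 1.62 and 0.467 CPM in OVX-AS-IV-High, a 7.48-fold range with overlap between all groups.

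Among the ITAM-coupled receptors, Oscar, which binds collagen, varied 5.11-fold. It had 15.2, 13.0 and 4.96 CPM in Sham, 14.0, 19.1 and 13.8 CPM in OVX and 25.4, 8.12 and 12.9 CPM in OVX-AS-IV-High. The lowest library was Sham replicate 3 and the highest OVX-AS-IV-High replicate 1. Siglec15, a receptor for sialylated glycans, had 12.9, 14.0 and 21.6 CPM in Sham, 12.0, 16.6 and 21.4 CPM in OVX and 13.8, 14.2 and 19.3 CPM in OVX-AS-IV-High. In each group replicate 3 held the highest Siglec15 value, and the groups overlapped. Trem2, a lipid-binding receptor of macrophages and osteoclasts, had 4.07, 6.57 and 5.95 CPM in Sham, 5.37, 3.72 and 5.59 CPM in OVX and 4.79, 5.39 and 5.85 CPM in OVX-AS-IV-High. Its groups overlapped as well.

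Tyrobp, the adaptor of Trem2 and Siglec15, was the only member whose Sham libraries all lay apart from the ovariectomized ones. It had 174, 183 and 184 CPM in Sham, 197, 200 and 250 CPM in OVX and 228, 216 and 203 CPM in OVX-AS-IV-High. All 6 ovariectomized libraries exceeded all 3 Sham libraries, with OVX replicate 3 the highest. Of all genes tested, 23.3% did not overlap between OVX and Sham and 19.9% between OVX-AS-IV-High and Sham. The share apart from Sham in all 6 libraries was not computed.

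**Figure D1:**
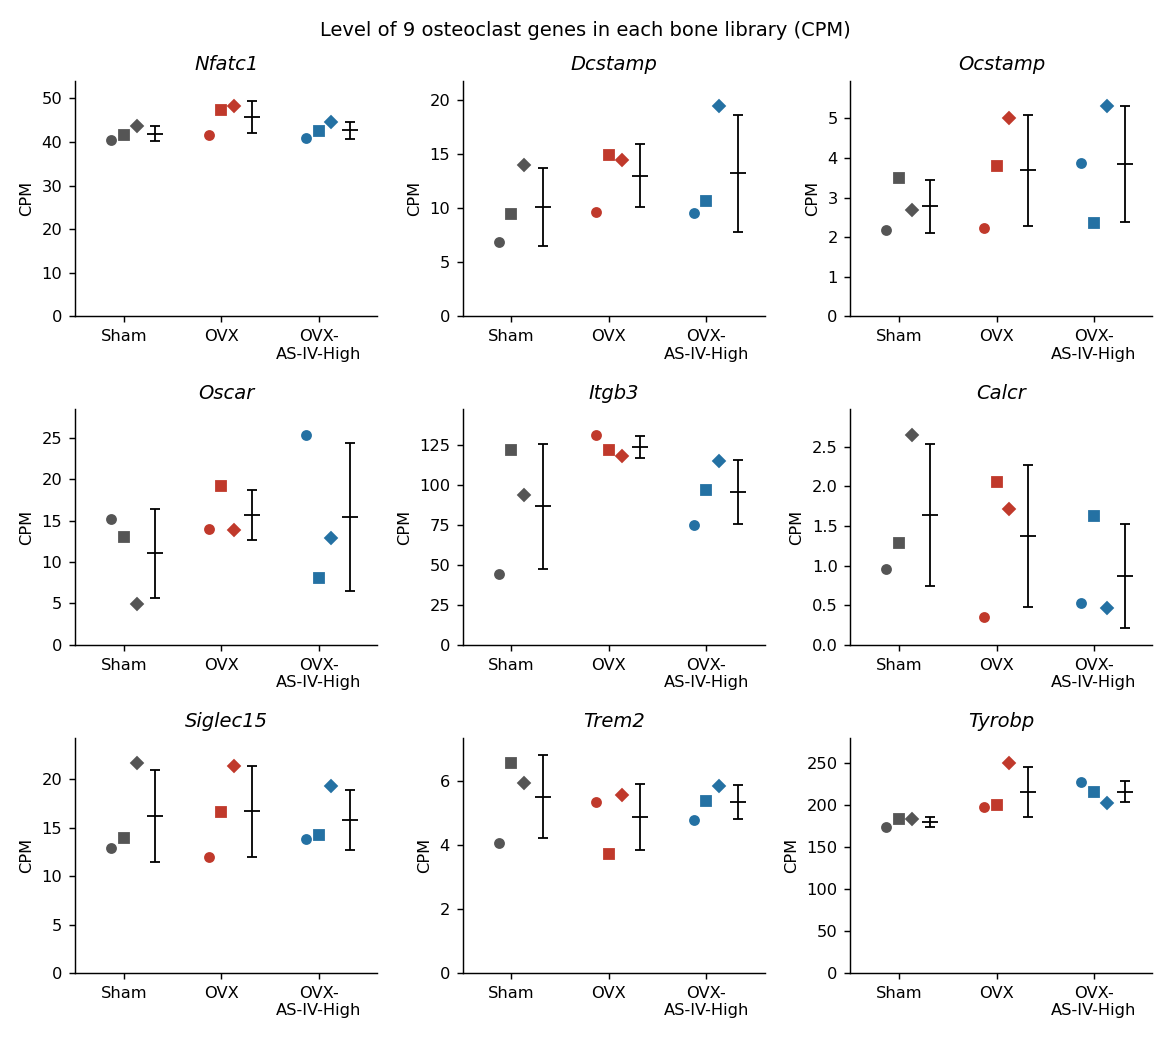
Each panel plots the CPM of a gene (vertical axis, from 0) in the 3 libraries of Sham (grey), OVX (red) and OVX-AS-IV-High (blue); circles, squares and diamonds are replicates 1, 2 and 3, and black bars are the mean ± SD. Tyrobp is the panel in which the Sham points, at 174 to 184 CPM, lie below all other points; in the Itgb3 panel the OVX points lie above the blue points.

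The promoters of 5 of the 9 genes (Oscar, Ocstamp, Calcr, Trem2 and Siglec15) were found in the RefSeq table of assembly GRCr8, as 250 bases before to 50 bases after the gene start. The expression files were made on another assembly, mRatBN7.2, so these coordinates belong to GRCr8 alone. Binding motifs of factors known in this lineage were looked for on both strands: AP-1 (TGANTCA), the core of the NFAT site (GGAAA) and PU.1 (GAGGAA). The sequence GAGGAAA holds both of the latter, so their matches can overlap. Among all 33469 promoters of the table, 7.33% held the AP-1 motif, 62.7% the NFAT core and 27.6% the PU.1 motif. The promoters of the 3 receptors are shown because the receptors share ITAM signalling while their levels varied differently across libraries, as given further on. Each is written 5′ to 3′ on the strand of its gene, with motif matches in capitals. Siglec15 lies at chr18:73796965-73797264 (minus strand), Oscar at chr1:74522633-74522932 (plus strand) and Trem2 at chr9:20151730-20152029 (minus strand).
Siglec15: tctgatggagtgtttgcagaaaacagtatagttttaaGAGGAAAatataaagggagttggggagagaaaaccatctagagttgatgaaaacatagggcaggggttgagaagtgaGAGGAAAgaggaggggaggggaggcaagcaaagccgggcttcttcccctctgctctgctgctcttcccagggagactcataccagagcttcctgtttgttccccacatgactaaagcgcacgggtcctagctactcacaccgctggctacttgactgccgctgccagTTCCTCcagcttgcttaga
Oscar: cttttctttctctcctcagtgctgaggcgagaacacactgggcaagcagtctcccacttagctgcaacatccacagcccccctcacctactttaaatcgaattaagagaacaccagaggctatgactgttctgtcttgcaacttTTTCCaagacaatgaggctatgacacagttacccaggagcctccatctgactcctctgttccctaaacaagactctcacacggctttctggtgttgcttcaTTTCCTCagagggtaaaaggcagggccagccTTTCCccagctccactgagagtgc
Trem2: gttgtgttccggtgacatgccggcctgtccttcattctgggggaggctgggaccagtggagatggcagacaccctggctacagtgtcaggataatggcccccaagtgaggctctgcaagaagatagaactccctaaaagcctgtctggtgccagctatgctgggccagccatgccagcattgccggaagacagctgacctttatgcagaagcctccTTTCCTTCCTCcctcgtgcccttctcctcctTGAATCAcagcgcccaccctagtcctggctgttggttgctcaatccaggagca
The Siglec15 promoter held 3 PU.1 matches, and both of its NFAT core matches lay inside GAGGAAA. The Oscar promoter held 3 NFAT core matches and 1 PU.1 match, with 1 overlap. The Trem2 promoter held 1 match of each motif, and it was the only 1 of the 5 promoters with the AP-1 motif. Ocstamp had 1 NFAT core match and Calcr had 0 matches. These are letters in a window, and binding was not measured.

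In the comparison of OVX with Sham, the osteoclast differentiation and fusion genes had mostly positive fitted differences, and these mostly lay within the replicate spread. The fitted log2FC was positive for 7 of the 9 genes, against 49.2% of the 16874 genes tested, and the median of the 9 was 0.26 against −0.01 for all genes tested. Only Tyrobp passed an unadjusted p under 0.05, where 16.4% of all genes tested did, and only Tyrobp had groups without overlap, where 23.3% of all genes did. A count of 1 in 9 is no larger than these backgrounds would give. The number of members that were DEGs (unadjusted p under 0.05 and absolute log2FC over 1) was 0, with 3.11% among all genes. With Benjamini-Hochberg adjustment edgeR called 0 members and 0% of all genes (0 of 16874), while DESeq2 called 0 members and 4.94% of all genes.

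The mean Tyrobp level was 216 ± 29.4 CPM in OVX and 180 ± 5.62 CPM in Sham (SD, n = 3 each). The log2FC was 0.26 (SE 0.11, 95% interval 0.02 to 0.51), a 1.20-fold difference, with an unadjusted p of 0.0394 and an adjusted p of 0.279 in edgeR's quasi-likelihood test. The unadjusted p rose above 0.05 when Sham replicate 1, 2 or 3, OVX replicate 3 or OVX-AS-IV-High replicate 2 was left out. It was also above 0.05 with the replicate number as a block (log2FC 0.26, unadjusted p = 0.0526, with 21.8% of all genes below 0.05) and in a fit of these 6 libraries alone (0.26, unadjusted p = 0.0582, with 17%). Without OVX replicate 3 the log2FC was 0.14 (unadjusted p = 0.193). Macrophages, neutrophils and natural killer cells also express Tyrobp. The neutrophil list summed to 11786 to 16624 CPM in Sham and 13971 to 18953 CPM in OVX over its 8 genes, of which 0 were absent throughout. The macrophage list (9 of 10 genes found, 0 of them absent throughout, Marco not in the table) summed to 459 to 825 CPM in Sham and 591 to 675 CPM in OVX. Both of these lists overlapped between the groups. The T and NK cell list (6 genes, 0 absent throughout) did not: it summed to 100 to 125 CPM in Sham, 139 to 182 CPM in OVX and 139 to 161 CPM in OVX-AS-IV-High, so that, like Tyrobp, it was lower in every Sham library than in every ovariectomized one. The adipocyte list (6 genes, 0 absent throughout) was also apart, with 284 to 386 CPM in Sham, 470 to 651 CPM in OVX and 457 to 645 CPM in OVX-AS-IV-High. Over the 9 libraries Tyrobp had r = 0.208 (exact permutation p = 0.589) and rho = 0.650 (exact permutation p = 0.0666) with the T and NK cell list. The part of these cells in the Tyrobp difference was not tested.

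For the other members the intervals show what these libraries could resolve. Nfatc1 had a log2FC of 0.12 with a 95% interval from −0.08 to 0.32, so a 2-fold difference in either direction lay outside it. The interval was also inside ±1 for Siglec15, from −0.54 to 0.63 around 0.04, and for Trem2, from −0.72 to 0.37 around −0.18. The Trem2 value was −0.36 without Sham replicate 1 and −0.01 without OVX replicate 2. Itgb3 had the largest log2FC, 0.52 (SE 0.31, −0.17 to 1.21, unadjusted p = 0.125). This value depended on the Sham libraries: it was 0.19 without Sham replicate 1 and 0.85 (unadjusted p = 0.0203) without Sham replicate 2. Oscar had 0.50 (−0.54 to 1.54), and Sham replicate 3, its lowest library, carried most of this, since 0.15 was left without it. Dcstamp had 0.36 (−0.39 to 1.11) and Ocstamp 0.41 (−0.45 to 1.26). The Dcstamp value was 0.14 without Sham replicate 1 and the Ocstamp value 0.12 without OVX replicate 3. Calcr, the least covered, had −0.25 (−1.82 to 1.33), an interval that includes 2-fold differences in both directions.

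**Figure D2:**
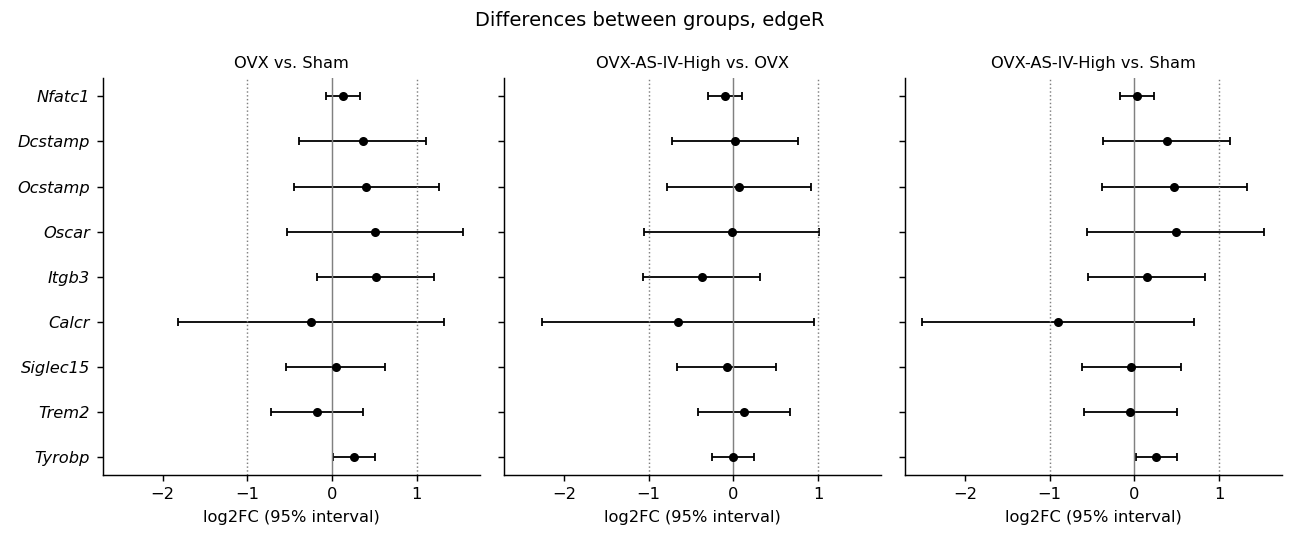
Points are the log2FC of each gene in the 3 comparisons (horizontal axis, log2 scale, the group named first minus the second) and bars are 95% intervals from the edgeR fit; dotted lines mark −1 and 1. The bars of Nfatc1 and Tyrobp are the shortest and those of Calcr the longest, and only the Tyrobp bars in the 2 comparisons with Sham stay on 1 side of 0.

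In the comparison of OVX-AS-IV-High with OVX, 0 of the 9 genes passed an unadjusted p under 0.05, against 6.45% of all genes tested, and 0 passed in DESeq2, against 7.45%. Consequently 0 were DEGs (0.83% of all genes), and the smallest adjusted p among the 9 was 0.928. Adjusted p under 0.05 was reached by 0 members and 0% of all genes in edgeR, and by 0 members and 0.219% of all genes in DESeq2. The log2FC was negative for 6 genes and positive for 3 (46.7% of all genes were positive), and the median was −0.02 both for the 9 genes and for all genes tested. Tyrobp had 215 ± 12.4 CPM after AS-IV and 216 ± 29.4 CPM in OVX, with a log2FC of 0.00 and an interval from −0.25 to 0.24. Nfatc1 had −0.10 (−0.30 to 0.10).

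Itgb3 was the only gene whose libraries did not overlap between OVX-AS-IV-High and OVX, where 12.7% of all genes did not. Its mean was 95.9 ± 20.1 CPM after AS-IV and 124 ± 6.82 CPM in OVX, a log2FC of −0.37 (SE 0.31, −1.06 to 0.32, unadjusted p = 0.255). In a fit of these 6 libraries alone, which leaves out the widely spread Sham values, the unadjusted p was 0.0450 (adjusted p = 0.701), with 7.02% of all genes below 0.05. With the replicate number as a block in the edgeR fit of all 9 libraries, the log2FC was −0.42 (unadjusted p = 0.153). Without OVX-AS-IV-High replicate 1 the log2FC was −0.22. The fusion genes gave 0.02 (−0.73 to 0.77) for Dcstamp and 0.06 (−0.79 to 0.91) for Ocstamp. Among the receptors, Siglec15 had −0.08 (−0.66 to 0.51), Trem2 0.13 (−0.42 to 0.67) and Oscar −0.02 (−1.05 to 1.02). The Oscar value was −0.58 when OVX-AS-IV-High replicate 1 was left out and 0.29 when replicate 2 of that group was. Calcr had −0.65 (−2.26 to 0.95). It was −1.47 without OVX-AS-IV-High replicate 2 and −0.24 without OVX replicate 2.

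The comparison of OVX-AS-IV-High with Sham shares the Sham libraries with the first comparison and the treated libraries with the second, and adds no independent evidence to either. Here 1 of the 9 genes passed an unadjusted p under 0.05 (17.6% of all genes tested), and 1 had groups without overlap (19.9%). The log2FC was positive for 6 genes (48.4% of all genes), 0 were DEGs (3.15%), and after adjustment 0 passed in edgeR (0%) and 0 in DESeq2 (5.98%). Both counts of 1 were Tyrobp, with a log2FC of 0.26 (SE 0.11, 0.01 to 0.50, unadjusted p = 0.0405, adjusted p = 0.266 in edgeR). Its p rose above 0.05 when Sham replicate 1, 2 or 3 or OVX-AS-IV-High replicate 1 or 2 was left out, with a log2FC between 0.22 and 0.30 over all libraries left out. Nfatc1 had 0.03 (−0.17 to 0.23). Calcr had the most negative value, −0.90 (−2.51 to 0.70, unadjusted p = 0.236). It was −0.37 without Sham replicate 3 and −1.71 without OVX-AS-IV-High replicate 2.

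The values of Oscar, Dcstamp and Ocstamp changed when muscle RNA was taken into account. The median sum of the muscle list was 5812 CPM in Sham, 2024 CPM in OVX and 2085 CPM in OVX-AS-IV-High. The groups overlapped, with 1619 to 9363 CPM in Sham, 1603 to 3241 CPM in OVX and 544 to 4532 CPM in OVX-AS-IV-High. Since the medians differed, group and muscle RNA cannot be fully told apart in these fits. With the mean log2 CPM of the skeletal muscle genes as a covariate, the log2FC of Oscar in OVX vs. Sham was 0.96 (unadjusted p = 0.0461, adjusted p = 0.326), and 14.9% of all genes then passed an unadjusted p under 0.05. For OVX-AS-IV-High vs. Sham it was 1.02 (unadjusted p = 0.0451, adjusted p = 0.287), with 16.6% of all genes passing. This last value made Oscar a DEG, as 2.55% of all genes were in that fit. Without the covariate the values were 0.50 and 0.49 (SE 0.46 each). The fusion genes moved the other way. With the covariate the OVX vs. Sham log2FC of Dcstamp was 0.0424 (0.36, SE 0.33, without it). That of Ocstamp was 0.187 (0.41, SE 0.38, without it). In the same fits Tyrobp had 0.26 in both comparisons, with unadjusted p = 0.0478 for OVX vs. Sham and unadjusted p = 0.0566, above the threshold, for OVX-AS-IV-High vs. Sham.

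The surrounding pathway was read from lists of genes in the same fit. All calls on these lists rest on unadjusted p-values, and with edgeR's adjusted p under 0.05 the count was 0 in every list; the smallest adjusted p of a named list gene was 0.138, for Nfkb1. Of 14 genes of RANK and M-CSF signalling, 4 had an unadjusted p under 0.05 and higher values in OVX than in Sham, and 2 had lower values. That was 42.9% of the list, beside 16.4% of all genes tested. The higher ones were Traf6 (log2FC 0.29), the adaptor that RANK recruits, and the NF-κB subunits Nfkb1 (0.59, unadjusted p = 0.000874), Nfkb2 (0.30) and Relb (0.37). The lower ones were Csf1 (−0.40), which encodes M-CSF, and the AP-1 subunit Jun (−0.59). After AS-IV 0 of the 14 passed relative to OVX, beside 6.45% of all genes tested. The median log2FC of the list was 0.07 in OVX vs. Sham and −0.03 after AS-IV relative to OVX.

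Of the 10 transcriptional partners and repressors of Nfatc1, Spi1 (PU.1, log2FC 0.25) and Irf8 (0.45), a repressor of osteoclast formation that B cells also express, were higher in OVX than in Sham. Fos, the AP-1 subunit required for osteoclasts, was lower, at −0.75 (unadjusted p = 0.0279). Together these were 30% of the list, beside 16.4% of all genes tested. After AS-IV, relative to OVX, Fos was higher (0.74, unadjusted p = 0.0290) and Irf8 was lower (−0.30, unadjusted p = 0.0275). That was 20% of the list, beside 6.45% of all genes tested. Both comparisons use the OVX libraries, so opposite signs in them are not separate observations. Nfatc1, between these partners, showed 0.12 and −0.10.

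Of the 13 genes of ITAM and calcineurin signalling, Btk (0.35), Blnk (0.49) and Plcg2 (0.22) were higher in OVX than in Sham and Plcg1 (−0.38) was lower. Together these were 30.8% of the list, beside 16.4% of all genes tested. Btk, Blnk and Plcg2 also serve the B cell receptor. All 5 B lineage markers found in the table (Vpreb1 was not) had an unadjusted p under 0.05 and higher values in OVX, and their summed level was 534 to 678 CPM in Sham, 918 to 946 CPM in OVX and 629 to 880 CPM in OVX-AS-IV-High. The part of B lineage RNA in the values of Btk, Blnk, Plcg2, Spi1 and Irf8 was not tested. After AS-IV 0 of the 13 genes passed relative to OVX, beside 6.45% of all genes tested.

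Of 10 other cell fusion genes, Sh3pxd2a, an adaptor of podosomes, was higher in OVX than in Sham (0.34, unadjusted p = 0.0295) and P2rx7, an ATP-gated channel, was lower. Together these were 20% of the list, beside 16.4% of all genes tested. P2rx7 had 5.34 ± 0.231 CPM in Sham and 1.71 ± 0.498 CPM in OVX (SD, n = 3 each), and its log2FC of −1.64 (unadjusted p = 0.00145, adjusted p = 0.140 in edgeR) was the only DEG of this comparison among the 6 pathway lists. Among all genes tested 3.11% were DEGs in OVX vs. Sham. Cd44, a hyaluronan receptor, was higher after AS-IV than in OVX (0.22, unadjusted p = 0.0495). It was 10% of the fusion list, beside 6.45% of all genes tested. Of 8 integrin adhesion genes 0 passed in either comparison. Of the 12 genes of the resorption machinery, Mmp14 (0.72) and Snx10 (0.39) were higher in OVX than in Sham, and 0 passed after AS-IV. Mmp14 and Snx10 were 16.7% of that list, near the 16.4% of all genes tested.

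The KEGG pathway of osteoclast differentiation in the deposited annotation, examined after the other lists had been seen, held 6 of the 9 genes, without Dcstamp, Ocstamp and Siglec15. Of its other genes 120 were tested. In OVX vs. Sham 15 were higher and 10 lower at an unadjusted p under 0.05, a share of 20.8% beside 16.4% of all genes. After AS-IV 7 were higher and 2 lower relative to OVX, 7.50% beside 6.45%. The median log2FC was 0.01 and −0.02 in these comparisons. Among the higher ones in OVX, those not named above were Lck (0.82), Jak1 (0.41), Ikbkg (0.40), Stat2 (0.34), Ifngr2 (0.30), Map2k1 (0.21) and Rac1 (0.19). The lower ones included Mapk11 (−1.09), Mapk12 (−0.94) and Mapk13 (−0.87), and the AP-1 genes Fosb (−1.79), Junb (−0.39) and Jund (−0.28). Junb was higher after AS-IV (0.41, unadjusted p = 0.00836). Nfatc2, the relative of Nfatc1, had −0.70 (unadjusted p = 0.0163) in OVX vs. Sham with overlapping groups.

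Levels were next set against the resorption machinery list of 12 genes, by subtracting the mean log2 CPM of that list in each library. The list includes Mmp14 and Snx10, and the part of cells other than osteoclasts in its level was not tested. With 3 libraries against 3 the exact two-sided permutation test cannot give a p under 0.1. In OVX vs. Sham 0 of the 9 genes had groups without overlap on this scale, against 10.2% of all genes, and Tyrobp had a difference of −0.01 (exact permutation p = 0.9). Between the treated libraries and OVX only Itgb3 was apart (4.08% of all genes), with a difference of −0.38 (exact permutation p = 0.1). Its ratio to the list was 1.03, 0.747 and 0.675 in OVX and 0.589, 0.614 and 0.644 in the treated group. In Sham it was 0.433, 0.961 and 0.577. The Sham libraries thus reached from below both other groups into the range of OVX. With Acp5 and Ctsk alone as the reference, 0 of the 9 genes were apart in this comparison (1.11% of all genes), and 1 was in OVX vs. Sham (3.4%), namely Calcr, with a difference of −1.004 (exact permutation p = 0.1). In OVX-AS-IV-High vs. Sham only Siglec15 was apart (12.4% of all genes), with a difference of −0.27 (exact permutation p = 0.1).

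This scale narrowed the spread of some members and widened that of others. The SD over the 9 libraries went from 0.45 to 0.22 on the log2 scale for Dcstamp, from 0.32 to 0.19 for Siglec15, from 0.50 to 0.38 for Itgb3 and from 0.48 to 0.39 for Ocstamp. It grew from 0.09 to 0.20 for Nfatc1, from 0.17 to 0.24 for Tyrobp, from 0.26 to 0.32 for Trem2 and from 0.68 to 0.81 for Oscar. Calcr stayed wide, at 0.97 and 0.91.

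Across the 9 libraries, Dcstamp followed the resorption machinery closely. Pearson's r was 0.940 (exact permutation p = 0.00073) and Spearman's rho 0.983 (exact permutation p = 4.96e-05). Among the 126 relations computed between members and with 10 lists, this was 1 of 2 with an adjusted p under 0.05 for r (adjusted p = 0.0460, and 0.00625 for rho). It remained at 0.884 without the 2 libraries farthest from the median of the list, at 0.927 after group means were removed, and between 0.903 and 0.977 with RLE size factors, on log2(FPKM + 1) and with each library left out. The other relation was that of Dcstamp with the skeletal muscle list, r = −0.956 (exact permutation p = 0.000435, adjusted p = 0.0460) and rho = −0.950 (exact permutation p = 0.000353, adjusted p = 0.0222). Without the 2 farthest libraries it was −0.886, and with group means removed −0.964. OVX-AS-IV-High replicate 3, with the least muscle RNA at 544 CPM, had the highest Dcstamp level, and Sham replicate 1, with the most at 9363 CPM, had the lowest. In each group replicate 1 had the most muscle RNA and replicate 3 the least, so the relations were also computed after the mean of each replicate number was removed, with the 216 orders of libraries within the numbers as the exact test. Dcstamp then had r = 0.825 with the resorption list and −0.880 with the muscle list, both at an exact permutation p = 0.00463, the smallest these orders can give, and an adjusted p of 0.146. Neither therefore passed, in a test whose smallest p is limited by the 216 orders. With group means removed as well, r was 0.520 and −0.792. These lists vary together across the same bone extracts, and the part of tissue sampling in the Dcstamp values was not tested. How many of all genes tested follow either list as closely was not computed. The relations are therefore not shown to be particular to Dcstamp.

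Nfatc1 and Siglec15 had the next strongest relations to the resorption list among the members, with r = 0.822 (exact permutation p = 0.00602) and rho = 0.900 (exact permutation p = 0.00203) for Nfatc1 and r = 0.803 (exact permutation p = 0.0101) and rho = 0.767 (exact permutation p = 0.0214) for Siglec15. The adjusted p of both r was 0.172, so neither passed. Without the 2 farthest libraries they were 0.791 and 0.826. Among the 36 pairs of members 0 passed after adjustment. By r the highest pair was Dcstamp and Siglec15, with r = 0.813 (exact permutation p = 0.00861, adjusted p = 0.172) and rho = 0.733 (exact permutation p = 0.0311). It was 0.905 without the 2 farthest libraries. By rho it was Nfatc1 and Dcstamp, with rho = 0.883 (exact permutation p = 0.00308, adjusted p = 0.0710) and r = 0.797 (exact permutation p = 0.00922), and 0.909 without the 2 farthest. These relations were weaker with the replicate number removed: r with the resorption list was then 0.565 for Nfatc1 (exact permutation p = 0.162) and 0.232 for Siglec15 (exact permutation p = 0.625). For Dcstamp it was 0.215 with Siglec15 (exact permutation p = 0.685) and 0.533 with Nfatc1 (exact permutation p = 0.213).

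The remaining members did not share this pattern at a level the test could resolve. Itgb3 had r = 0.643 (exact permutation p = 0.0492, adjusted p = 0.290) and rho = 0.317 (exact permutation p = 0.410) with the resorption list, and 0.321 without the 2 farthest libraries. With the megakaryocyte and platelet list Itgb3 had r = −0.017 (exact permutation p = 0.965) and rho = 0.217 (exact permutation p = 0.581). Without the 2 farthest libraries this r was −0.817. Oscar had r = −0.337 (exact permutation p = 0.377) and rho = −0.333 (exact permutation p = 0.385) with the resorption list. With the replicate number removed this r was 0.317 (exact permutation p = 0.454). On that removal the r of Oscar with Dcstamp went from −0.219 (exact permutation p = 0.575) to 0.518 (exact permutation p = 0.245). That with Ocstamp went from 0.349 (exact permutation p = 0.371) to 0.961 (exact permutation p = 0.0185, adjusted p = 0.389). The r of Oscar with the neutrophil list, 0.666 (exact permutation p = 0.0526, with rho = 0.400 at 0.291), turned to −0.397 without the 2 farthest libraries, so it rested on those. Tyrobp had r = 0.719 (exact permutation p = 0.0294, adjusted p = 0.248) and rho = 0.683 (exact permutation p = 0.0503) with the neutrophil list, and 0.725 without the 2 farthest libraries. Trem2 had r = 0.742 (exact permutation p = 0.0210, adjusted p = 0.248) and rho = 0.733 (exact permutation p = 0.0311) with the erythroid list, and 0.678 without the 2 farthest. Trem2 and its adaptor Tyrobp had r = 0.068 (exact permutation p = 0.864) and rho = −0.083 (exact permutation p = 0.843).

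**Figure D3:**
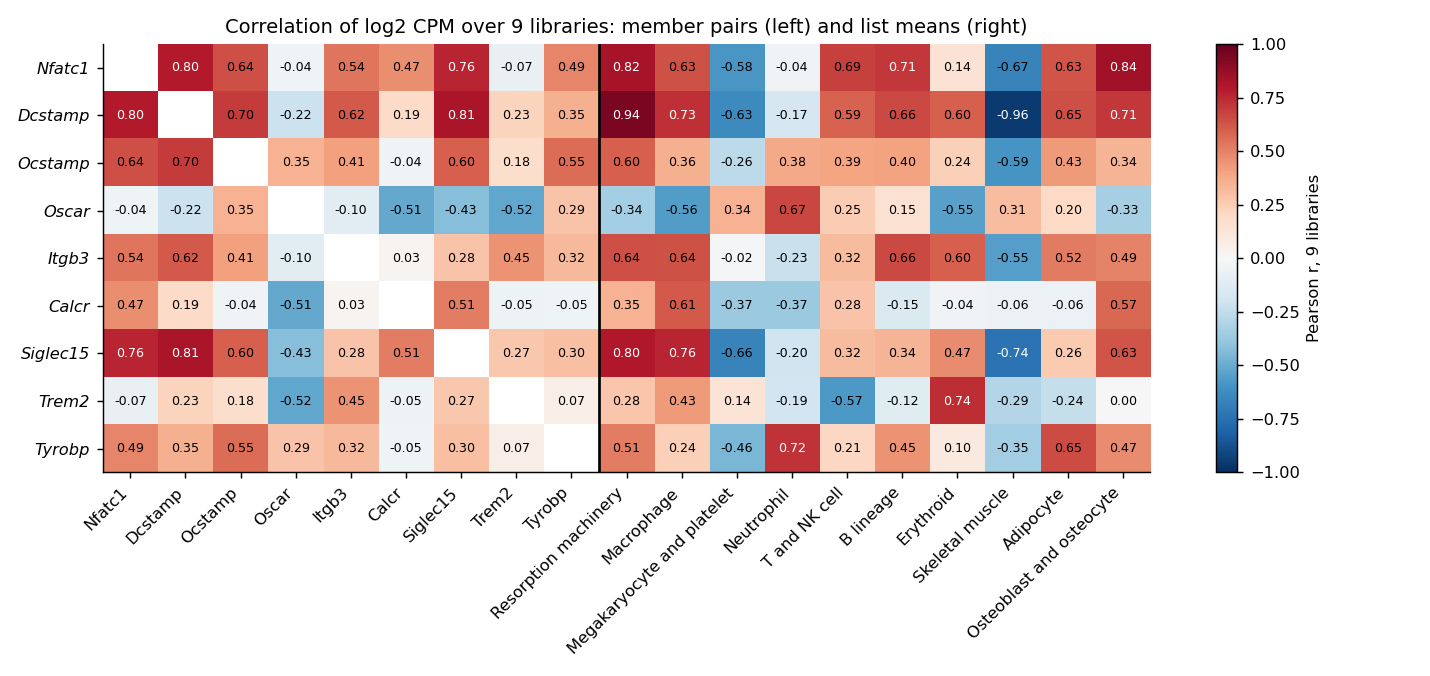
Colours and numbers give Pearson's r of log2 CPM over the 9 libraries (red positive, blue negative) for each gene (rows) with the other genes (left of the line) and with the mean of each gene list (right of the line). Dcstamp is darkest at the resorption list (0.94) and the skeletal muscle list (−0.96), while the list columns of the Oscar row are mostly of the opposite colour to those of Dcstamp. The replicate number was not removed here.

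**Figure D4:**
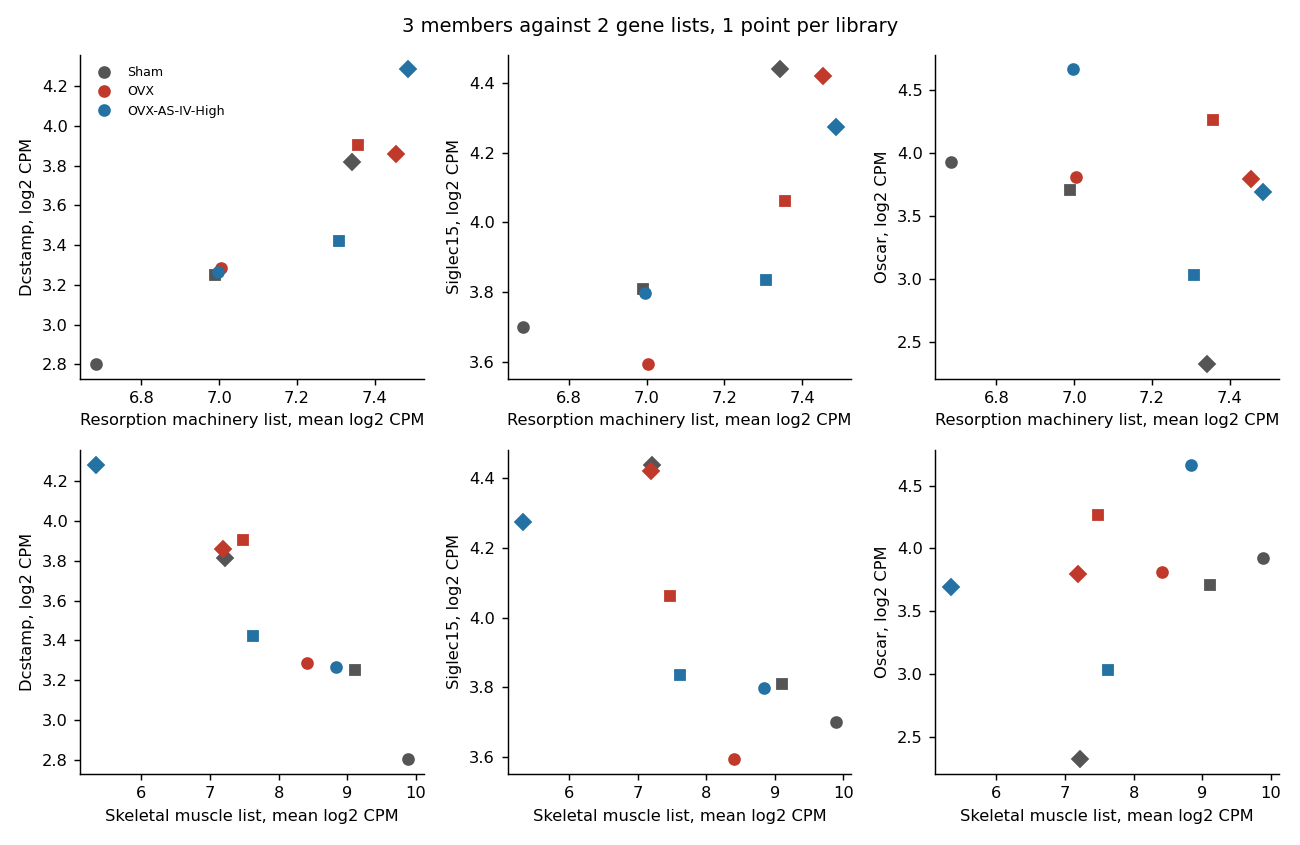
Each point is a library, placed by the mean log2 CPM of a list (horizontal axis; resorption machinery above, skeletal muscle below) and the log2 CPM of Dcstamp, Siglec15 or Oscar (vertical axis); colours are the groups and circles, squares and diamonds are replicates 1, 2 and 3. Dcstamp climbs with the resorption list and falls with the muscle list (r = 0.940 and −0.956) with the groups intermixed, Siglec15 follows more loosely (0.803 with the resorption list), and the Oscar points have no common slope (−0.337).

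The genes most like the 9 genes as a set, by r over the 9 libraries to the mean of their z-scored log2 CPM, were LOC120097869 (0.942), Plekhb2 (0.935), Srrm2 (0.934), Sema7a (0.924), Smad7 (0.909), Slc6a6 (0.904), Xpr1 (0.898), Hira (0.897), Gusb (0.895) and Dcaf5 (0.894). Gene by gene, the closest was Slc6a6 for Nfatc1 (0.975), Pi4ka for Dcstamp (0.953), Dscam for Ocstamp (0.883), Hcst for Oscar (0.953), Rasa3 for Itgb3 (0.978), A3galt2 for Calcr (0.962), LOC103691483 for Siglec15 (0.964), LOC120095911 for Trem2 (0.983) and Spi1 for Tyrobp (0.937). Hcst encodes DAP10, an adaptor related to Tyrobp, and Spi1 encodes PU.1. These are the highest of 16874 values over 9 libraries and describe this table only.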

How the data were processed

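Bone mRNA of 9 rats was sequenced in 3 groups. Per the paper's methods, the authors filtered reads, aligned them with Tophat/Bowtie2 and quantified genes with eXpress; the processing notes name the build mRatBN7.2. For each gene, the authors deposited a whole-number count and an FPKM value. How the estimates became whole numbers is not given in the sources used here.

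The test on counts was glmQLFTest of edgeR 4.0.16 (quasi-likelihood; R 4.3.3; TMM, filterByExpr with a minimum count of 10, all 9 libraries in 1 fit), which kept 16874 genes and all 9 members. SE is the absolute log2FC divided by the square root of F. P-values were adjusted by Benjamini-Hochberg over all genes tested. The thresholds were those of the study, and the alternatives were DESeq2 1.42.0, limma 3.58.1 on log2(FPKM + 1) or log2(FPKM + 0.1), RLE size factors, no filter, only 2 groups, a muscle covariate, a replicate block, an absolute log2FC over 0.58 and each library left out. Correlations used log2 CPM (prior count 2) and all 362880 orders of the 9 libraries, which treat them as exchangeable, and as an added alternative the 216 orders within replicate numbers. The edgeR, DESeq2 and limma tests were checked on simulated independent counts, with no gradient of muscle RNA or replicate number. That check did not cover the permutation and correlation tests. With 34874880 to 37298250 counts per library, a level of 3 counts is the limit of detection, and every member lay above it.

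The members and gene lists were chosen with earlier results of these data known. The genes named are the members, list genes with an unadjusted p under 0.05 (for the KEGG list a selection made after values were seen), and the genes most like them; the promoters shown were also picked after values were seen. Libraries of the same number deviated weakly together from their group means in OVX and OVX-AS-IV-High (r = 0.310, 0.158 and 0.130), so the numbers may pair these groups. The main fit did not pair them, and the replicate block was an alternative. For Sham the values were mixed. Replicates 1 and 3 gave 0.200 and 0.253 with OVX and 0.314 and 0.435 with OVX-AS-IV-High. Replicate 2 gave −0.161 and −0.158. Whether the numbers pair Sham was therefore not settled. The methods describe the libraries as independent biological replicates.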

Additional observations from a re-analysis of the deposited data

How the results depend on the processing

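Of 459 log2FC values (27 of members under 17 alternatives each), 398 kept their direction and side of an unadjusted p of 0.05, 13 lost that side, 4 gained it and 44 changed sign. The 44 belonged to values whose intervals include 0. The number of members that passed was 0 for an adjusted p under 0.05 under every alternative. For OVX vs. Sham, 1 member (Tyrobp) passed an unadjusted p under 0.05. It was 0 with the replicate block, 0 with only these groups in the fit, 2 with the muscle covariate and 0 to 1 with a library left out (10.3% to 25.2% of all genes). Whether the numbers pair Sham was not settled, and the replicate block changed no other call on a log2FC. After AS-IV relative to OVX the count was 0, and 1 (Itgb3) with only those groups in the fit. Against Sham, the treated group had 0 to 1 passing with a library left out (11.2% to 23.3% of all genes), and 1 DEG (Oscar) with the muscle covariate (2.55% of all genes). Groups apart on the scale of the resorption list numbered, with a library left out, 0 to 2 in OVX vs. Sham (12.6% to 44.7% of all genes), 1 to 3 after AS-IV relative to OVX (7.36% to 19.1%) and 1 to 3 after AS-IV relative to Sham (15.1% to 45.2%). With Acp5 and Ctsk alone they numbered 1 in OVX vs. Sham (3.4%) and 0 after AS-IV relative to OVX (1.11%). Among member pairs 0 to 1 correlations passed with a library left out (1 without OVX-AS-IV-High replicate 3). With the replicate number removed the r of Dcstamp with the resorption and muscle lists (0.825 and −0.880) no longer passed after adjustment. The alternatives for the correlations were added after the data were seen.

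Signs changed as follows, and the cause was not tested. With the muscle covariate, Siglec15 had −0.18 in OVX vs. Sham. After AS-IV relative to OVX the covariate gave −0.17 for Dcstamp, −0.0148 for Ocstamp and 0.0617 for Oscar, and relative to Sham −0.0449 for Nfatc1, −0.13 for Dcstamp and −0.10 for Itgb3. Dcstamp after AS-IV relative to OVX was −0.0473 and −0.0600 in limma on log2(FPKM + 1) and log2(FPKM + 0.1), and −0.0297 with the replicate block. Tyrobp in that comparison was 0.0109 in DESeq2, 0.0109 with RLE size factors, 0.0127 with no filter, 0.00434 with the replicate block and 0.00376 with only these groups. With a library left out, the range in OVX vs. Sham was −0.66 to 0.29 for Calcr and −0.17 to 0.31 for Siglec15. After AS-IV relative to OVX it was −0.37 to 0.21 for Dcstamp, −0.24 to 0.35 for Ocstamp, −0.58 to 0.29 for Oscar, −0.27 to 0.14 for Siglec15, −0.0370 to 0.23 for Trem2 and −0.0630 to 0.12 for Tyrobp. After AS-IV relative to Sham it was −0.00652 to 0.0580 for Nfatc1, −0.00331 to 0.69 for Dcstamp, −0.0713 to 0.79 for Oscar, −0.16 to 0.48 for Itgb3, −0.20 to 0.23 for Siglec15 and −0.22 to 0.10 for Trem2.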
